A study of Caenorhabditis elegans with 2 samples.

Results

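SKN-1 binding was mapped by ChIP-seq in whole L1 larvae of Caenorhabditis elegans, and the regions described here are the autosomal peaks that lay inside introns, away from every annotated promoter. The worms were of strain OP178, with the mutation unc-119(ed3) III and the integrated transgene wgIs178, from which eGFP-tagged SKN-1 is made. The labels give pooled males and females, an unknown age and 1 group with 2 biological replicates, so no condition was compared with another, and the transgene copy and the tag are shared by every sample. Intronic peaks were the optimal peaks of the authors' list (the regions that passed their reproducibility threshold in ce11) on the 5 autosomes whose summit fell in no window from 1000 bp upstream to 200 bp downstream of a protein-coding transcript start, in no exon, and inside the body of a protein-coding gene. This rule chose 241 of 3484 optimal peaks (6.92%), or 8.60% of the 2802 autosomal ones. Of the other autosomal peaks, 1975 had the summit in a promoter window, 457 lay in intergenic sequence outside those windows and 129 lay in an exon. A further 77 peaks of the X chromosome met the rest of the rule and are not counted. The rule used position only, and motifs were free to vary. The authors had already chosen the optimal peaks for reproducibility, so strength and replicate agreement varied only within that choice.

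SKN-1 is related to the Nrf proteins of mammals. It binds DNA as a monomer through a basic region like that of bZIP proteins but without their leucine zipper, and it is known for turning on detoxification and proteasome genes in the intestine and for specifying endoderm in the embryo. Sequence inside introns can hold enhancers, and in the worm many genes have several promoters, so that an intron of a long transcript can also be the upstream region of a shorter one. Whole larvae were used, so that a strong signal in few cells and a weak one in many cannot be told apart. No ChIP of untagged worms was analysed here, so whether an intronic peak was specific to SKN-1 was not tested.

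The sequences under the strongest of these summits are shown first, because they carry the motif whose share differed by the most percentage points between intronic and promoter peaks, a GA repeat. Each line holds 151 bases centred on the summit, from the plus strand of the RefSeq ce11 genome. Capitals mark every match, on either strand, to 1 of the 9 motifs searched. The first 6 are the strongest intronic peaks, and dhc-4 is the next strongest that holds TGTCAT, a core form reported for SKN-1.
osgn-1: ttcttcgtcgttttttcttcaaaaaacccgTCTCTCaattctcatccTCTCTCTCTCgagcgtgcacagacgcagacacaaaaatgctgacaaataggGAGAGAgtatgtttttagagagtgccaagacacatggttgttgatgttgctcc
epg-9: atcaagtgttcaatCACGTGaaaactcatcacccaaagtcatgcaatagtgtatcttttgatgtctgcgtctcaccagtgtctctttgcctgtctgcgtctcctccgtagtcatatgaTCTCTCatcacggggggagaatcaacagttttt
Y111B2A.12: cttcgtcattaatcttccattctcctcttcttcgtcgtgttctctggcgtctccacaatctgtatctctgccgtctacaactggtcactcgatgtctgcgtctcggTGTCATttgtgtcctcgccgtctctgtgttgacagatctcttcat
ntl-3: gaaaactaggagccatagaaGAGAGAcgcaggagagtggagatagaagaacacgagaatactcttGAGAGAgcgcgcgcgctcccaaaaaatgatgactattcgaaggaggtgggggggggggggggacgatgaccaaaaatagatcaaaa
pqn-41: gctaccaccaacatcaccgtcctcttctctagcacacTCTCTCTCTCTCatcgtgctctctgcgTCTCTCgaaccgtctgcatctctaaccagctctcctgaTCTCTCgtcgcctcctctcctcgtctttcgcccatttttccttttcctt
mnk-1: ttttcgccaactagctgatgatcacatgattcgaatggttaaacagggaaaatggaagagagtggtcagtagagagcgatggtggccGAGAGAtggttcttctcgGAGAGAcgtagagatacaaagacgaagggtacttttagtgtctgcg
dhc-4: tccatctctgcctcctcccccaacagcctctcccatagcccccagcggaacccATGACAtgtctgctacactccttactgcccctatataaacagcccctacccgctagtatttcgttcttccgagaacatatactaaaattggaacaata
These windows lie at chrIV:4215469-4215619 (osgn-1), chrIV:2602084-2602234 (epg-9), chrIII:12612570-12612720 (Y111B2A.12), chrIII:11836841-11836991 (ntl-3), chrIII:1926530-1926680 (pqn-41), chrII:10552066-10552216 (mnk-1) and chrIII:10989564-10989714 (dhc-4). GAGAGA, written TCTCTC on the other strand, stood in 5 of the 7 windows, with 5 overlapping matches at osgn-1 and 6 at pqn-41. The window of epg-9 held 1 GAGAGA and 1 CACGTG, the E-box that basic helix-loop-helix proteins bind. TGTCAT stood in the window of Y111B2A.12, where none of the other 8 motifs did, and as its reverse complement in that of dhc-4. Outside the 9 motifs, CTGCGTC or its reverse complement was present at osgn-1, epg-9 (2 copies), Y111B2A.12, ntl-3 and pqn-41. That stretch was picked out after the sequences had been seen.

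The strongest intronic peak was also the strongest peak of the whole series, and the rest fell in 1 range well below it. The peak in osgn-1 (WBGene00017934), a homologue of the oxidative stress induced growth inhibitor, had a deposited signal of 1810 and rank 1 in the optimal list, in replicate 1 and in replicate 2. Signal is the authors' value per region, without a stated unit, and ranks regions within 1 list. No other intronic peak exceeded 242.2, the median was 54.96 and the lowest was 33.02. The next was in epg-9, an autophagy gene, at rank 80 of the optimal list, with rank 124 in replicate 1 and 70 in replicate 2. Y111B2A.12 followed at rank 101 (129 in replicate 2 and slightly better in replicate 1), and ntl-3, a subunit of the CCR4-NOT deadenylase, at rank 111 (69 in replicate 1 and 208 in replicate 2). A peak in pqn-41, which encodes a glutamine-rich protein, had rank 131 (105 in replicate 1 and 258 in replicate 2), and 1 in mnk-1, the MAP kinase interacting kinase, had rank 132 (193 in replicate 1 and 137 in replicate 2). All 6 stood high in both replicates.

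The 25 strongest intronic peaks lay in 21 genes and had signals of at least 106.1. After those 6, they were in pqn-41 (3 further peaks), nhr-19, W06H8.6, Y38F2AR.12, zfp-1 (a pair), dhc-4, lit-1, Y62E10A.13, T28F4.1, fkh-7, larp-1, Y43F8B.2, spe-15, mpk-2, ppfr-1 and daf-5. Several of these genes act in signalling: lit-1 is the Nemo-like kinase of the Wnt pathway, mpk-2 is a MAP kinase, ppfr-1 is a regulatory subunit of protein phosphatase 4, and daf-5 encodes the Ski-type partner in dauer TGF-beta signalling. Others act on chromatin, RNA or transport, with zfp-1 the homologue of AF10, fkh-7 a forkhead factor, nhr-19 a nuclear hormone receptor, larp-1 a La-related RNA-binding protein, dhc-4 a dynein heavy chain and spe-15 a myosin of class VI. Of the 25, 24 had a summit within 100 bp among the 3484 strongest regions of both replicates. So did 99.4% of the 697 strongest optimal peaks of any class. Of the 25, 18 lay above a later start of the same gene, against 136 of all 241 intronic peaks. An intron of 2000 bp or more held 17 of them, against 159 of the 241.

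Intronic peaks were weaker than promoter peaks. Among the 1742 strongest optimal peaks were 111 of 241 intronic peaks (46.1%) and 1097 of 1975 promoter peaks (55.5%), an odds ratio of 0.68 (two-sided Fisher's exact test, adjusted exact p = 0.0333), a call lost with a wider promoter window of 2000 bp upstream to 500 bp downstream (adjusted exact p = 0.368). Against intergenic peaks (179 of 457, 39.2%) the difference did not pass (adjusted exact p = 0.256). The p-values of these class comparisons were adjusted by the Benjamini-Hochberg method over all 22 that were made. Neighbouring peaks can share a gene, so such a p-value describes the deposited lists rather than variation between cultures of worms. In 5 equal bins of the list by signal, from strongest to weakest, the intronic peaks numbered 28, 51, 54, 47 and 61, and the promoter peaks 468, 417, 400, 367 and 323. The shortfall was thus in the strongest bin, and the weakest bin held the most intronic peaks. In the pooled list, which has no threshold, 5444 autosomal regions met the same rule and 4.43% of them were optimal, while 23.5% of 8393 promoter regions and 9.31% of 4908 intergenic regions were.

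**Figure D1:**
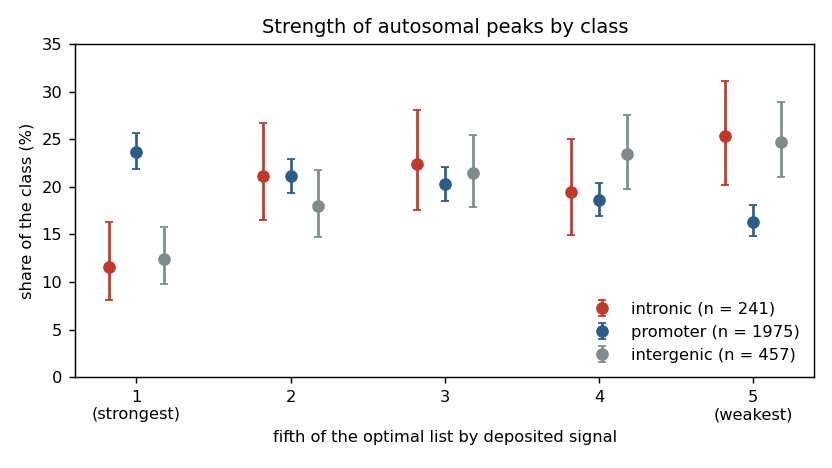
Share of each class of autosomal optimal peak (vertical axis, %) in 5 equal bins of the whole optimal list by deposited signal (horizontal axis), for 241 intronic, 1975 promoter and 457 intergenic peaks; bars are Wilson 95% intervals. Intronic peaks are fewest in the strongest bin (28) and most in the weakest (61), and promoter peaks the reverse (468 and 323).

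Intronic peaks were backed by both replicates less often than promoter peaks. All classes had already passed the authors' reproducibility threshold, so agreement was compared only within that selection. A summit within 100 bp among the 3484 strongest regions of each replicate was present for 139 of 241 intronic peaks (57.7%, Wilson 95% interval 51.4 to 63.8), against 65.2% of all optimal peaks, 1379 promoter peaks (69.8%, 67.8 to 71.8) and 261 intergenic peaks (57.1%, 52.5 to 61.6). The difference from promoter peaks passed the test (odds ratio 0.59, adjusted exact p = 0.00191), and that from intergenic peaks did not (adjusted exact p = 0.981). The wider promoter window and the use of 1 intronic peak per gene, with all promoter peaks kept, each ended the call (adjusted exact p = 0.241 and 0.0577). Agreement was highest in the 2 strongest bins and fell over the other 3. From the strongest bin to the weakest, 92.9%, 98.04%, 66.7%, 38.3% and 14.8% of intronic peaks met it, against 99.8%, 96.6%, 78.5%, 42.2% and 12.4% of promoter peaks. In the full lists of 30000 regions, 225 of the 241 intronic peaks (93.4%) had a replicate 1 region within 100 bp, against 95.3% of all optimal peaks, and 229 (95.02%) a replicate 2 region, against 97.2%. Both were present for 213 of 241, against 3229 of 3484 optimal peaks.

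Over those 213, the ranks in the replicates had a Spearman rho of 0.41, against 0.59 over 1862 promoter peaks and 0.40 over 423 intergenic peaks, as a description across peaks that share 2 libraries. The ranks differed by a factor above 5 for 19 of the 213 (8.9%). The share was 7.0% of the 1862 promoter peaks and 9.0% of the 423 intergenic peaks. Base composition moved with the difference in rank between the replicates. Of the intronic peaks with both ranks, replicate 1 gave the better rank to 58 of 71 (81.7%) among the richest in G and C (windows of 49.01 to 69.54% GC), to 32 of 70 (45.7%) in the middle and to 21 of 72 (29.2%) among the poorest (24.5 to 42.4% GC). The same order was seen outside introns, where promoter peaks better ranked by replicate 1 had a median GC of 45.7% and those better ranked by replicate 2 had 40.4%. The part of base composition in the replicate difference was not tested.

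**Figure D2:**
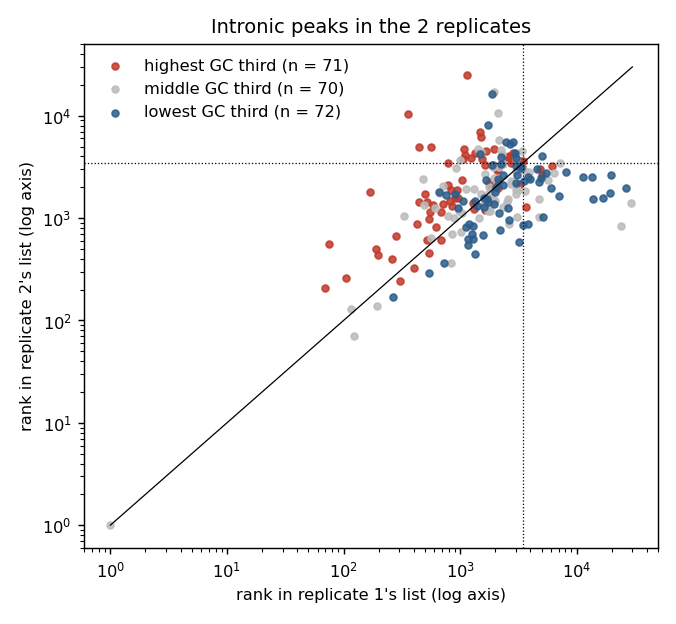
Rank in replicate 1's list (horizontal, log axis) and replicate 2's list (vertical, log axis) of the 213 intronic peaks with a region in both, coloured by GC of the 151 bp window; the line marks equal rank and the dotted lines rank 3484. Points above the line ranked better in replicate 1, and they include 58 of the 71 with the highest GC and 21 of the 72 with the lowest.

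Among the strongest intronic peaks that lacked this support, the replicates mostly had a summit nearby. A peak in pqn-41 (chrIII, summit 1925151, rank 468) had rank 229 in replicate 2, while the nearest replicate 1 summit was 258 bp away. A second pqn-41 peak, 215 bp further on (summit 1925366, rank 1249), had rank 446 in replicate 1 and 4903 in replicate 2. The peak in hlh-30 (chrIV, summit 4024342, rank 579), which encodes the TFEB homologue that controls autophagy and lysosome genes, had rank 246 in replicate 1, with the nearest replicate 2 summit just over 100 bp away. Those in mdt-26, a Mediator subunit (rank 1402, with 561 in replicate 1 and 4942 in replicate 2), and C35B1.2 (rank 1467, with 3490 in replicate 1 and 851 in replicate 2) had both replicates within 100 bp, but 1 of them below rank 3484.

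Intronic peaks were denser in long introns and above alternative starts. Autosomal sequence that met the rule, called eligible here, came to 22207908 bp (26.9% of autosomal bases) and held 10.85 intronic peaks per Mb. Introns of 5000 bp or more held 100 of the 241 peaks (41.5%, 35.5 to 47.8) in 12.7% of eligible sequence, or 35.5 per Mb. The rate was 17.2 per Mb in introns of at least 2000 but under 5000 bp (59 peaks), 6.71 between 1000 and 2000 bp (30), 3.84 between 500 and 1000 bp (20) and 5.09 in shorter ones (32). The median intron with a peak was 3422 bp long. Sequence upstream of a later start of the same gene, as in an intron that an alternative promoter follows, held 136 peaks (56.4%, 50.1 to 62.5) in 22.8% of eligible sequence, at 26.9 per Mb, against 6.12 per Mb below every start of the host. For those 136, the next start of the host was 1004 to 15129 bp downstream, with a median of 2770 bp.

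Length and later starts went together, and each went with a higher rate at a given level of the other. In introns of 2000 bp or more, the rate was 35.4 per Mb above a later start (125 peaks) and 12.6 without one (34 peaks). In shorter introns it was 7.24 per Mb above a later start (11 peaks) and 4.92 without one (71 peaks). First introns held 73 peaks (30.3%, 24.8 to 36.4) in 20.4% of eligible sequence, at 16.1 per Mb, against 9.50 per Mb in other introns. The intron was numbered in the longest transcript, and numbering it in the transcript that gives the lowest number put 46.9% of peaks in a first intron. Relative to the nearest start of any gene, the highest rate, 26.8 per Mb (52 peaks), was 1000 to 2000 bp upstream, just beyond the promoter window. In all, 91 summits lay upstream of their nearest start and 150 downstream, and for 208 that start belonged to the host gene. No placement test was run on these rates.

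**Figure D3:**
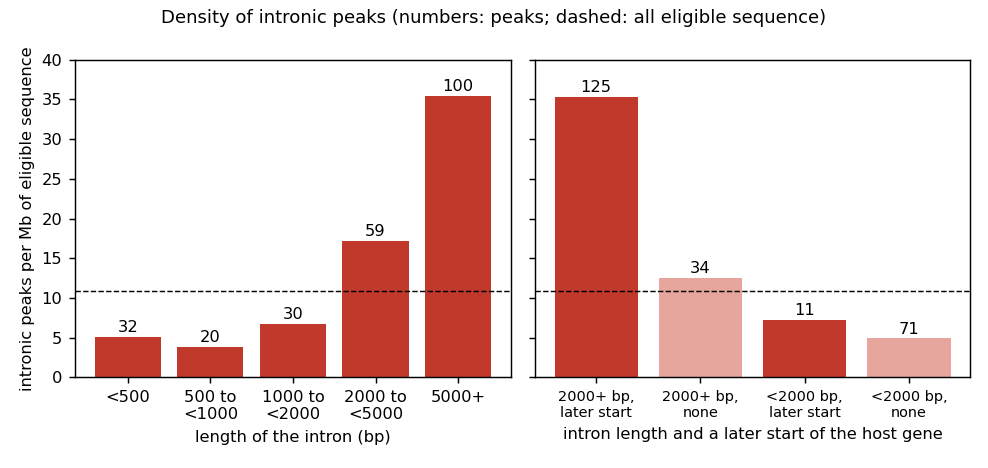
Intronic peaks per Mb of eligible autosomal sequence (vertical axis, from 0) by length of the intron in bp (left) and by intron length with or without a later start of the host gene downstream (right); numbers above the bars count peaks and the dashed line marks 10.85 per Mb. The rate is 35.5 per Mb in introns of 5000 bp or more and 3.84 to 6.71 below 2000 bp, and 35.4 per Mb where a long intron is followed by a later start.

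Peaks lay close to the edge of the promoter window on both sides. The intronic peaks nearest to it lay 1002 bp upstream of F54F2.6 (inside zfp-1, rank 2850, signal 39.28), 1004 bp upstream of a start of ifb-1, an intermediate filament gene (rank 3236, 35.20), and 1015 bp upstream of a start of frm-10 (rank 951, 83.38). On the other side of the edge, 3 peaks inside gene bodies were counted as promoter peaks, 998 bp upstream of F48C1.3 (rank 966, signal 82.75), 998 bp upstream of mrps-28, a mitochondrial ribosomal protein gene (rank 1702, 59.01), and 981 bp upstream of ech-1.2 (rank 3147, 36.16). The osgn-1 peak stood 1087 bp upstream of the last of that gene's 3 starts, and the second epg-9 start followed its peak by 1085 bp. With the wider window, 158 intronic peaks were left, in 123 genes, without the osgn-1, epg-9 and strongest pqn-41 peaks.

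The 241 peaks lay in 188 genes, which is 1.27% of the 14827 autosomal protein-coding genes with eligible sequence. Most of these hosts, 157, had 1 peak, and 31 had 2 or more and held 84 peaks. The gene with most was fkh-7 (WBGene00001439), with 6 over its 25.7 kb. Its strongest peak had signal 117.4 (rank 453, with 728 in replicate 1 and 364 in replicate 2), and the others 63.89, 63.66, 58.47, 55.02 and 42.64. Of the 6, 5 lay in the 16465 bp intron 1 and 1 in a 3019 bp intron before a later start, and a further peak, at rank 1205, was in a promoter window of the gene. One of the 6, at rank 1724, had no replicate 1 region within 100 bp and rank 1137 in replicate 2.

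The genes osgn-1, pqn-41 and ppfr-1 had 5 intronic peaks each. In osgn-1 the 4 weaker ones, with signals of 62.29, 57.76, 38.42 and 37.50, all lay in its 6184 bp first intron, and no optimal peak was in a promoter window of the gene. In pqn-41 (WBGene00004128) all 5, with signals of 195.1, 172.8, 117.5, 115.8 and 71.96, lay in 1 intron of 10372 bp, above a later start, and a promoter peak of the gene had rank 477. In ppfr-1 (WBGene00008878) the signals were 106.7, 100.9, 95.39, 92.93 and 40.49, and all 5 lay below every start of the gene. The AMP kinase gamma subunit gene aakg-1 had 4 peaks, with signals of 85.65, 62.63, 46.50 and 38.19. The peak with signal 62.63 ranked 354 in replicate 1 and 10388 in replicate 2. Hosts with 3 peaks were Y111B2A.12, mnk-1, zfp-1, daf-5, ell-1 (the ELL elongation factor), unc-43 (the calcium and calmodulin dependent kinase II) and T28B11.1. In the 12 genes with 3 or more, 40 of 46 peaks lay above a later start, against 136 of all 241. Of the 46, 45 were in introns of 2000 bp or more, where 125 of all 159 intronic peaks lay above a later start.

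**Figure D4:**
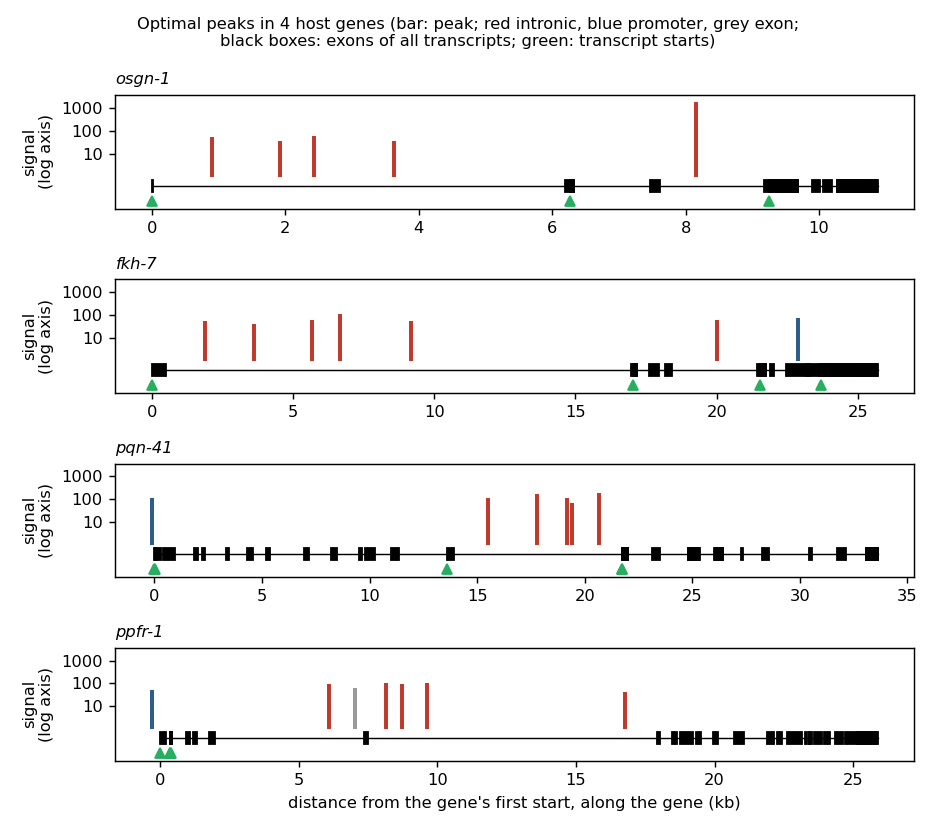
Optimal peaks along osgn-1, fkh-7, pqn-41 and ppfr-1, by distance from the gene's first start in kb (horizontal axis) and deposited signal (vertical, log axis). Red bars are intronic, blue promoter and grey exonic peaks, black boxes exons of all transcripts of the gene and green triangles transcript starts. The grey peak, inside ppfr-1 at rank 1628, fell in an exon of the antisense RNA anr-20, which is not drawn. The 5 peaks of pqn-41 stand in 1 intron before a later start, 5 of the 6 of fkh-7 in intron 1, and the 1810 signal of osgn-1 1087 bp before its last start.

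Hosts often had a promoter peak too. An optimal summit was in a promoter window of 68 of the 188 hosts (36.2%), against 14.5% of all 14827 genes with eligible sequence and 17.2% of the 2762 genes with at least 2000 eligible bases and no intronic peak. The number of starts per gene was not matched between these sets, and no test was run. By chromosome, 50 peaks lay on I, 42 on II, 60 on III, 53 on IV and 36 on V. Per Mb of eligible sequence this was 10.1, 11.3, 13.6, 11.95 and 7.65, lowest on V. Median signal ran from 43.36 on I to 65.11 on III.

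The gene lists differed in how many intronic peaks they held. Each count is to be read beside all genes with eligible sequence, of which 1.27% were hosts. All eligible sequence held 10.85 peaks per Mb. Intron length and later starts were not matched, and introns of 2000 bp or more above a later start held 35.4 per Mb. The lists were chosen with earlier results of these data known. Of 26 insulin, TOR and stress signalling genes with eligible sequence, 7 were hosts (26.9%), with 12 peaks, or 79.1 per Mb. They were hlh-30 (signals 105.3 and 74.26), vhp-1, a MAP kinase phosphatase (77.38 and 76.30), the MAP kinase kinase kinase dlk-1 (65.96), unc-43 (61.66, 59.58 and 34.05), the insulin receptor daf-2 (60.72), the FOXO factor daf-16 (49.73 and 40.19) and tax-6, the calcineurin catalytic subunit (35.67). The strongest peak of each ranked between 579 and 3188. The daf-2 peak stood 1272 bp above a later start and ranked 2029 in replicate 1 and 2009 in replicate 2. The tax-6 peak had no replicate 1 region within 100 bp and rank 3457 in replicate 2.

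Of 58 other developmental transcription factors, 8 were hosts (13.8%, against 1.27% of all genes), with 14 peaks (60.1 per Mb, against 10.85 in all eligible sequence). Of the 14, 6 were in fkh-7. Besides fkh-7, the strongest were lag-1, the CSL factor of Notch signalling (79.64 and 77.39), daf-14, a Smad (75.55), and mef-2 (60.65). The mef-2 peak ranked 19178 in replicate 1 and 1765 in replicate 2. Weaker ones were in egl-27 (48.06), a MTA homologue, egl-44 (35.66), the TEAD factor, atf-7 (35.30), a bZIP factor, and lin-1 (34.32), an ETS factor downstream of Ras. Of 70 synapse and axon genes, 4 were hosts (5.71%, with 5 peaks, 10.9 per Mb, near the 10.85 of all eligible sequence). They were unc-33 (78.83 and 33.02), sax-7 (48.40), pkc-1 (33.40) and cam-1 (33.34), which act in axon growth, adhesion or synaptic release.

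In the other lists, with 0 or 1 host each, the counts are too small to set apart from the 1.27% of all genes. The SKN-1 pathway and its reported targets had 1 host of 28, mpk-1, the ERK kinase (signal 83.71, rank 940, with 476 in replicate 1 and 2392 in replicate 2). Body wall muscle genes had 1 of 41, the myosin heavy chain unc-54 (39.40), and lipid and membrane genes had 1 of 38, the fatty acid synthase fasn-1 (96.14, rank 719). None was found in 38 proteasome and ubiquitin, 37 homeobox or 48 ion channel and pump genes, which allows a share of hosts of up to 7.89%, 8.11% and 6.25%. Those lists offer little sequence in places, with 20955 eligible bp in the proteasome list against 263059 bp in the channel list. The lists and the rates per Mb are descriptions, and no enrichment was tested.

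GA repeats were the commonest motif at intronic summits. GAGAGA stood within 75 bp of 110 of 241 summits (45.6%, 39.47 to 51.95), against 34.6% of all optimal peaks, 30.1% of promoter peaks and 48.8% of intergenic peaks. The excess over promoter peaks passed the test (odds ratio 1.95, adjusted exact p = 5.16e-05), and the difference from intergenic peaks did not (adjusted exact p = 0.787). In windows 1000 bp from the intronic summits, 12.03% held it. By strength, from the strongest bin to the weakest, 67.9% (19 of 28), 50.98%, 40.7%, 40.4% and 39.3% of intronic peaks held it. In the same order, 54.39%, 51.22%, 54.08%, 42.06% and 46.02% of intergenic peaks did, while promoter peaks stayed between 27.8% and 33.4%. The repeat was at 76 of the 136 peaks above a later start of the host (55.9%), against 34 of the other 105 (32.4%), an untested split looked at after the values were known. By intron length, it was at 84 of 159 peaks in introns of 2000 bp or more (52.8%) and 26 of 82 in shorter ones (31.7%). The longer introns held 125 of the 136, so the 2 splits overlap, and they were not separated. All 2080 sequences of 6 bases, each with its reverse complement, were then counted at the same summits, so the count is no separate support. GAGAGA had the largest excess of intronic summits (110) over the windows 1000 bp away (29). The next 4 by that count, led by AGAGAG, were likewise made mostly of purines and share 5 letters with it. ACGCAG, part of the stretch seen in the printed windows, came next, in 54 summit windows and 8 others.

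The stretch CTGCGTC was in 39 intronic windows (16.2%), against 14.2% of all optimal peaks, 13.9% of promoter peaks and 20.8% of intergenic peaks, and in 2 of the windows 1000 bp from intronic summits (0.83%). In the strongest bin, 11 of 28 intronic peaks held it (39.3%), against 18.2% of all optimal peaks in that bin, 73 of 468 promoter peaks (15.6%) and 20 of 57 intergenic peaks (35.1%). Of the 39 intronic windows with CTGCGTC, 28 also held GAGAGA. So did 281 of 493 over all optimal peaks, 153 of 275 at promoter peaks and 68 of 95 at intergenic peaks. At least 1 of the pair was in 121 of the 241 (50.2%), against 40.7% of all optimal peaks, 36.3% of promoter peaks and 54.7% of intergenic peaks. CTGCGTC was chosen after the sequences had been seen, and no test was run on it.

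The core forms reported for SKN-1 stood at few intronic summits. TGTCAT was within 75 bp of 27 (11.2%, 7.82 to 15.8), against 11.1% of all optimal peaks, 9.37% of promoter peaks (adjusted exact p = 0.708) and 15.1% of intergenic peaks (adjusted exact p = 0.408). In the windows 1000 bp away it was in 8 (3.32%, 1.69 to 6.41), a lower share than around other peaks. Such windows held it for 6.7% of all optimal peaks, 6.7% of promoter peaks and 7.4% of intergenic peaks. The strongest intronic peaks with it were those of Y111B2A.12, dhc-4, fasn-1, dhod-1, aakg-1 and frm-10, at ranks 101 to 951, and the nearest match was at a median of 35.5 bp from the summit. Among the 52 peaks 1000 to 2000 bp upstream of their nearest start it was in 12 (23.1%), against 15 of the other 189 (7.94%), again an untested split looked at after the values were known. Its share by strength, from the strongest bin, was 7.14%, 13.7%, 9.26%, 10.6% and 13.1% of intronic peaks, and 15.2%, 7.43%, 8.25%, 9.26% and 4.95% of promoter peaks. TATCAT, the other form, was at 17 intronic summits (7.05%), against 6.46% of all optimal peaks and 12.04% of intergenic peaks (adjusted exact p = 0.179), and in 11.6% of the windows 1000 bp away. With 1 intronic peak per gene its share was 4.26%, which lay below intergenic peaks with a call (adjusted exact p = 0.0217) and below the 5.21% of promoter peaks without one (adjusted exact p = 0.836). Either form was at 41 (17.01%), near the 16.4% of all optimal peaks, and at 13.9% of promoter peaks and 13.7% of the windows 1000 bp from intronic summits.

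The E-box CACGTG was at 23 intronic summits (9.54%, 6.44 to 13.9), against 6.11% of all optimal peaks and 4.66% of promoter peaks (odds ratio 2.16, adjusted exact p = 0.0219). It was at 9.19% of intergenic summits (adjusted exact p = 0.981) and in 2.91% of the windows 1000 bp from intronic ones. The call against promoter peaks was lost with 1 intronic peak per gene (7.98%, adjusted exact p = 0.230), without replicate 1 (9.31% against 5.10%, adjusted exact p = 0.0592), with the wider promoter window (adjusted exact p = 0.241) and among the 1742 strongest peaks (adjusted exact p = 0.0640). Besides epg-9, the strongest intronic peaks with an E-box were in W06H8.6, Y62E10A.13 and fkh-7. The GATA-type TGATAA was at 28 (11.6%), against 8.47% of all optimal peaks and 7.49% of promoter peaks (adjusted exact p = 0.138), and among the alternatives it passed only with a narrower promoter window of 500 bp upstream to 100 bp downstream. No difference passed for the AP-1 type TGANTCA (4.98%, against 4.25% of all optimal peaks), the CRE type ACGTCA (6.22%, against 6.6%), the forkhead type GTAAACA (2.49%, against 3.42%) or the heat shock core TTCNNGAA (6.64%, against 5.74%). None of the 9 motifs was at 70 of the 241, against 1364 of all 3484 optimal peaks and 874 of 1975 promoter peaks. A match to any of them is a run of letters and was not tested as a site.

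**Figure D5:**
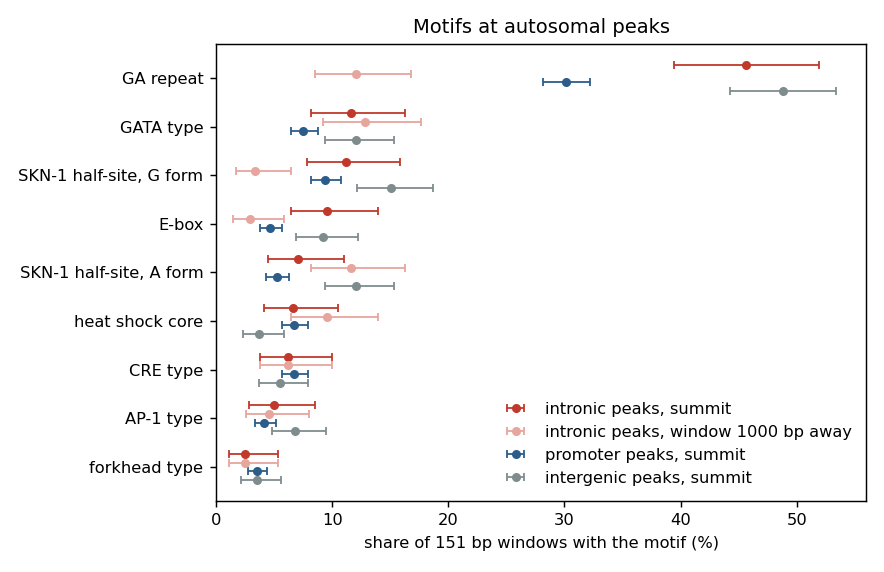
Share of 151 bp windows (horizontal axis, %) that hold each of 9 motifs on either strand, at intronic summits (red), in windows 1000 bp from them (pale red), and at promoter (blue) and intergenic (grey) summits; bars are Wilson 95% intervals. The GA repeat stands at 45.6% of intronic summits against 30.1% of promoter summits, and the G form of the SKN-1 core at 11.2% against 9.37%.

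The windows at intronic summits held more G and C than those 1000 bp away, as a description without a test. The median GC of the 151 bp window was 45.7%, against 35.8% in the windows 1000 bp away, 41.7% at promoter summits and 31.8% over all eligible bases. A like rise was seen in other classes. The median was 43.7% at intergenic summits, against 33.8% in their windows 1000 bp away. Over all optimal peaks it was 43.7%, against 35.8%. Of the 241 intronic windows, 194 exceeded their own neighbour, a count that was not made for the other classes. Repeats marked in the RefSeq genome covered a median of 15.9% of the window, against 28.5% at promoter summits. The median was 19.2% at intergenic summits and 22.5% over all optimal peaks. Of all eligible bases, 55.2% were so marked. GAGAGA was at 26 of the 80 intronic summits with the lowest GC, 43 of the 80 in the middle and 41 of the 81 with the highest. TGTCAT, whose letters are mostly A and T, was at 12, 11 and 4. The part of base composition in these motif shares was not tested.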

How the data were processed

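ChIP-seq of 1 group with 2 biological replicates was analysed. The authors deposited ce11 region lists: 30000 regions per replicate, 27729 pooled regions and 3484 optimal peaks. Each region has a deposited signal value, used only to rank regions within a list. Per the labels, fragments were 150 to 350 bp. Read numbers, the aligner, the caller and its reproducibility threshold are not stated in the sources used here, so depth is unknown and intervals cover counting of regions only. The control alignment was not analysed here.

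Genes came from Ensembl release 115 (WBcel235, the assembly of ce11) and sequence and repeat marks from RefSeq. The summit is the start plus the peak offset. The host's intron came from its longest transcript with the summit in an intron. Comparison windows were taken 1000 bp to 1 side of the summit, or to the opposite side if they came within 200 bp of another summit. Shares of 2 classes were compared by two-sided Fisher's exact tests, adjusted (Benjamini-Hochberg) over 22, at 0.05, and intervals are Wilson 95%. A share of 0 allows 3 counts of the total. Peaks, gene lists and motifs were chosen with earlier results of these data known. The genes named host the 25 strongest peaks or 3 or more peaks, belong to 1 of 9 gene lists (up to the 4 strongest each, the signalling and transcription factor lists in full), lie nearest the window edge, or are the 5 strongest without support from both replicates, and those named for a motif were added after their values were seen. Promoter window, exon rule, summit, peak list, distance and motif window were varied. The classing and motif code passed 17 checks on simulated data. Scripts ran in Python 3.11.15 (numpy 2.4.6), with scipy 1.17.1 for the tests, statsmodels 0.14.6 for the adjustment and matplotlib 3.10.9 for plots.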

Additional observations from a re-analysis of the deposited data

How the results depend on the processing

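The excess of GAGAGA at intronic over promoter peaks passed the test under every alternative run, and weaker signal than promoter peaks under all but the wider promoter window (2000 bp upstream to 500 bp downstream). With that window 158 intronic peaks in 123 genes were left, the median intron was 4925 bp, and 3 calls against promoter peaks were lost. These were strength (46.8% of intronic peaks among the 1742 strongest, adjusted exact p = 0.368), support by both replicates (60.1%, adjusted exact p = 0.241) and CACGTG (9.49%, adjusted exact p = 0.241). The same CACGTG share turned below that of intergenic peaks, and TGTCAT (7.59%) and TGANTCA (4.43%) turned below promoter peaks and ACGTCA (3.80%) below intergenic peaks. The narrower window (500 bp to 100 bp) gave a call for TGATAA over promoter peaks (12.1%, adjusted exact p = 0.0249). It also turned the differences from intergenic peaks for TGATAA, for ACGTCA (5.90%) and for replicate support (57.0%).

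The 1742 strongest optimal peaks held 111 intronic peaks in 87 genes. There the CACGTG call was lost (10.8%, adjusted exact p = 0.0640). That share turned against intergenic peaks, as did those of TGATAA (10.8%), GAGAGA (53.2%) and replicate support (87.4%), and TGTCAT (10.8%) turned against promoter peaks. With only the strongest intronic peak of each host gene, an alternative chosen after seeing the data, the median intron was 2510 bp. Promoter and intergenic peaks were not thinned in this way. The calls of replicate support (60.6%, adjusted exact p = 0.0577) and CACGTG (7.98%, adjusted exact p = 0.230) against promoter peaks were lost, and TATCAT (4.26%) fell below intergenic peaks (adjusted exact p = 0.0217). CACGTG turned against intergenic peaks, and TATCAT, as well as ACGTCA (6.91%) and TTCNNGAA (6.91%), against promoter peaks.

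Without 1 replicate, from the other's 3484 strongest regions, the intronic share ranged from 39.5% to 41.7% among the stronger regions, 8.74% to 9.31% for CACGTG, 5.59% to 7.29% for ACGTCA, 2.43% to 3.15% for GTAAACA, 5.26% to 5.94% for TGANTCA, 8.74% to 14.6% for TGATAA and 6.64% to 7.69% for TTCNNGAA. Without replicate 1 the CACGTG call was lost (adjusted exact p = 0.0592). The differences that turned there were all without a call, those of ACGTCA, TTCNNGAA and TGATAA without replicate 1, and those of strength, GTAAACA and TGANTCA without replicate 2.

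Other turned differences, also without a call, were ACGTCA (7.04% against promoter peaks) and TGATAA (11.6% against intergenic peaks) when only coding genes' exons were left out, TTCNNGAA with region middles (7.02%) or a motif window of 50 bp to each side (4.98%), and, with 100 bp to each side, ACGTCA (7.47%), GTAAACA (4.56%, both classes) and TGATAA (15.8%). Replicate support turned against intergenic peaks with summits within 50 bp (41.9%) and with all regions of each list (88.4%). Counting the lowest-numbered intron put 46.9% of peaks in a first intron. The causes were not tested. Replicate support has no value in lists of 1 replicate, nor strength within the stricter list.

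No paired analysis was possible because there is 1 group. Depth is unknown, so a missing peak says only that no region passed the authors' threshold. Region lists give no read counts, and small classes of peaks leave intervals of several percentage points on each motif share.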

Other observations

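A further 43 autosomal optimal peaks lay inside a protein-coding gene body and outside every promoter window but missed the rule because the summit fell in an exon of a non-coding gene there. Of these exons, 16 belonged to ncRNA genes, 13 to an ncRNA gene overlapping a tRNA gene, 6 to tRNA genes, 4 to antisense RNAs and 2 to snoRNAs. The strongest was at ZK484.10, an ncRNA inside haf-9, with signal 156.4 and rank 229. At the antisense RNA anr-54, 2 peaks (ranks 771 and 1391) lay inside vhp-1, and 1 at linc-143 (rank 1117) lay inside daf-2, genes that also held intronic peaks. These names were chosen after their values were seen.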
